A study of Caenorhabditis elegans with 16 samples.

Results

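The 5 genes *tatn-1*, *hpd-1*, *hgo-1*, *fah-1* and *prdh-1* encode enzymes that break down tyrosine or proline in *Caenorhabditis elegans*. They were chosen by name for their place in these pathways, with earlier results of these data known. They make up 5 of the 19122 protein-coding genes in the count table, and all 5 passed the low-count filter in every comparison. RNA of whole animals at the L4 stage, grown at 20°C, was sequenced from 4 genotypes with 4 independent populations each. The control was the wild type strain N2, without a transgene. The other strains each express SKN-1t, an N-terminally truncated and constitutively active form of the stress-responsive transcription factor SKN-1. Strain GR3105 carries *mgTi21* and expresses SKN-1t[NNNN], in which the glycosylation-motif asparagines are intact. Strain NJL2492 carries *mgTi42* and expresses SKN-1t[NDNN], with 1 asparagine changed to aspartate. Strain NJL2494 carries *mgTi41* and expresses SKN-1t[DNDD], with 3 changed. These changes mimic sequence editing, the conversion of asparagine to aspartate that SKN-1A undergoes when its sugars are removed. Every transgene is driven by the ubiquitously active *rpl-28* promoter with HA and GFP tags, each form is represented by 1 strain, and the 3 strains also carry *unc-119(ed3)*, which N2 lacks. An effect of SKN-1t cannot be told apart from one of that background or of the insertion, and the endogenous *skn-1* gene was still present.

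Tyrosine is broken down to fuel molecules in a fixed series of steps. TATN-1 removes the amino group of tyrosine, HPD-1 turns the resulting 4-hydroxyphenylpyruvate into homogentisate, HGO-1 opens the homogentisate ring, and FAH-1 splits fumarylacetoacetate into fumarate and acetoacetate. In *C. elegans*, loss of *fah-1* harms the intestine because upstream intermediates build up, and reduced *tatn-1* function raises tyrosine. PRDH-1 is proline dehydrogenase, the first enzyme of mitochondrial proline breakdown, and its product is carried on to glutamate by ALH-6.

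The libraries held between 23806929 and 30457636 counts each. Levels are given below as CPM, counts scaled to a common library size by TMM over all 16 samples. The *skn-1* gene, whose reads include those of the transgene, had 112 to 133 CPM in wild type, 269 to 335 in SKN-1t[NNNN] animals, 256 to 320 in SKN-1t[NDNN] animals, and 205 to 256 in SKN-1t[DNDD]. Of 10 reporter genes of SKN-1 activity, 7 rose in SKN-1t[NNNN] animals, 7 in SKN-1t[NDNN] animals, and 8 in SKN-1t[DNDD]. These rose over 2-fold at an adjusted p below 0.01, as did 7.03%, 6.85% and 3.44% of all genes in the same order. The median log2 fold change of the 10 fell in that order, at 2.87, 2.60 and 1.82. Set directly against SKN-1t[NNNN], SKN-1t[DNDD] had 4 of the 10 called lower. The 3 called higher were the proteasome genes *rpt-3*, *rpn-12* and *pbs-5*. In whole animals fewer cells of a type and less RNA per cell cannot be told apart.

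Per length, *hpd-1* was the most abundant of the 5 transcripts in wild type animals, at 459 CPM per kb, followed by *tatn-1* at 313, *fah-1* at 239 and *hgo-1* at 160. *prdh-1* was far lower, at 15.1 CPM per kb, and ranked 5454 of 19122 genes per length, while *hpd-1* ranked 377. In the WBcel235 annotation the protein-coding members lie at X:14791008-14792984 on the plus strand (*tatn-1*) and III:10535526-10537680 on the plus strand (*hpd-1*). The others lie at I:9049460-9055457 (*hgo-1*), X:6446746-6448916 (*fah-1*) and IV:13868556-13876615 (*prdh-1*), each on the minus strand. No 2 of them are close neighbours.

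The transcripts of the enzyme that makes homogentisate and of the one that consumes it moved in opposite directions in 2 of the 3 strains. *tatn-1*, *hpd-1* and *prdh-1* rose and *hgo-1* fell in SKN-1t[NNNN] animals and likewise in SKN-1t[NDNN] animals, while SKN-1t[DNDD] animals showed lower *hgo-1* and *fah-1* with no rise past the rules given next. A gene was called when it differed over 2-fold at an adjusted p below 0.01, the rule of the study, and the looser rule used beside it asks for over 1.5-fold at an adjusted p below 0.05. Adjusted p-values are from edgeR's quasi-likelihood fit, adjusted by the Benjamini-Hochberg method over all genes tested. Values per sample run from replicate 1 to replicate 4, and values of the 3 strains without a name run from SKN-1t[NNNN] first, through SKN-1t[NDNN] next, to SKN-1t[DNDD] last. Where groups are said below not to overlap, how many of all genes separate likewise was not counted.

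**Figure D1:**
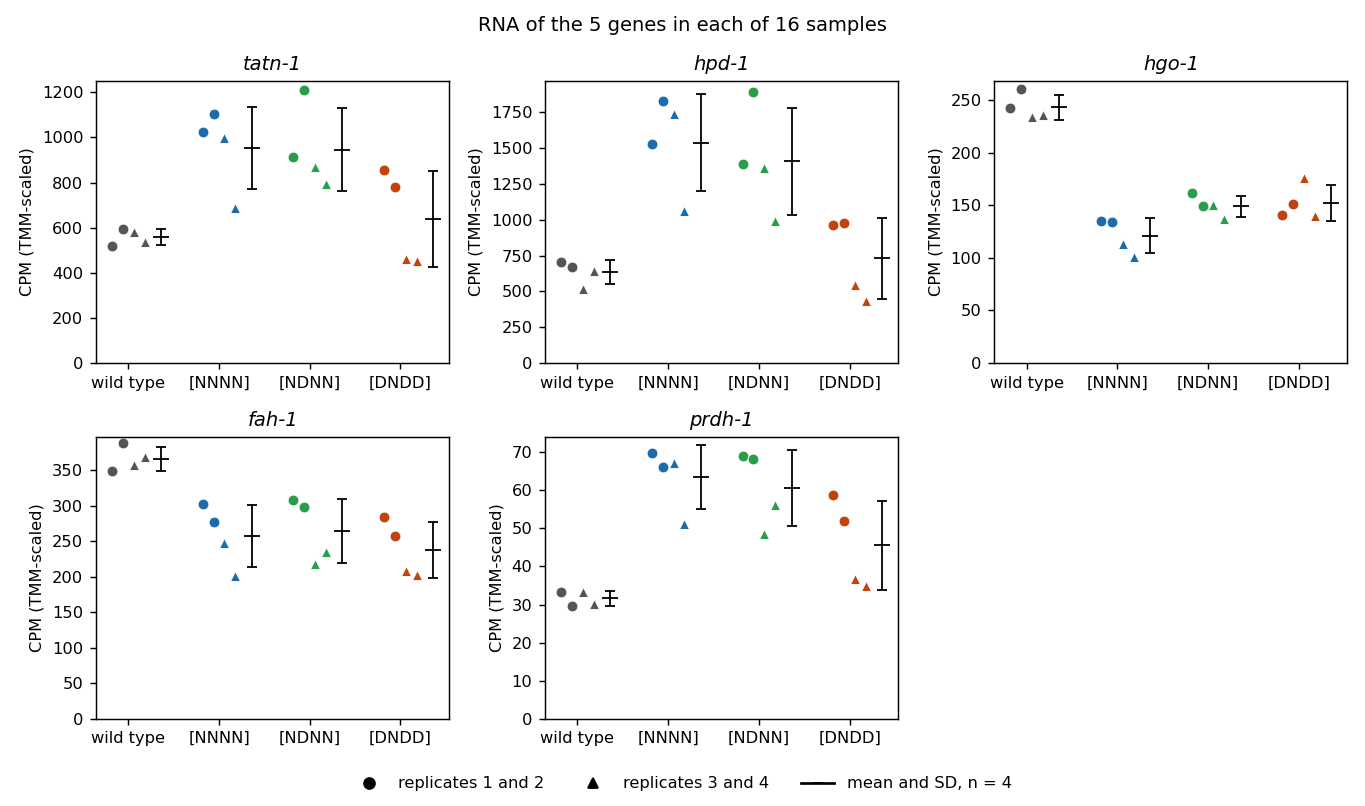
Level of each gene in CPM (vertical axis, from 0) in the 4 genotypes, with circles for replicates 1 and 2, triangles for replicates 3 and 4, and black bars for the mean and SD of 4 samples. *hgo-1* and *fah-1* were below wild type in all 12 transgenic samples, and *prdh-1* was above wild type in all 12. The share of all genes that separate in this way was not counted.

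*tatn-1*, the tyrosine aminotransferase, had 518, 596, 581 and 537 CPM in wild type. It had 1023, 1102, 998 and 688 CPM in SKN-1t[NNNN] animals and 912, 1211, 867 and 795 in SKN-1t[NDNN] animals. All 8 of these samples lay above all wild type samples. In SKN-1t[DNDD] it had 858, 780.4, 462 and 452 CPM, so that replicates 1 and 2 were above the wild type range and replicates 3 and 4 below it. *tatn-1* rose by a log2 fold change of 0.88 (SE 0.13, edgeR adjusted p = 0.00115) in SKN-1t[NNNN] and 0.85 (SE 0.14, edgeR adjusted p = 0.00194) in SKN-1t[NDNN], past the looser rule and short of 2-fold. In SKN-1t[DNDD] it differed by 0.20 (SE 0.22, edgeR adjusted p = 0.495), less than the spread between replicates.

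*hpd-1*, the dioxygenase that makes homogentisate, had the largest fold of the 5 in SKN-1t[NNNN] animals and also in SKN-1t[NDNN] animals. It had 706, 669, 517 and 645 CPM in wild type. It reached 1530.2, 1826, 1738 and 1062 CPM in SKN-1t[NNNN] animals and 1389, 1895, 1362 and 989 in SKN-1t[NDNN] animals, where the lowest sample exceeded the highest wild type sample. In SKN-1t[DNDD] it had 964, 976, 546 and 433 CPM, with replicates 1 and 2 above the wild type range, replicate 3 within it and replicate 4 below it. *hpd-1* rose by a log2 fold change of 1.39 (SE 0.17, 95% interval 1.01 to 1.77, edgeR adjusted p = 0.000398) in SKN-1t[NNNN] and 1.24 (SE 0.20, 95% interval 0.80 to 1.69, edgeR adjusted p = 0.00174) in SKN-1t[NDNN]. In SKN-1t[DNDD] it differed from wild type by 0.21 (SE 0.26, 95% interval -0.39 to 0.81, edgeR adjusted p = 0.558).

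*hgo-1*, the homogentisate oxidase directly after HPD-1, went the other way. It had 243, 260.0, 234 and 236 CPM in wild type. It had 135, 135, 112.8 and 101 CPM in SKN-1t[NNNN] animals, 161, 149, 149.9 and 137 in SKN-1t[NDNN] animals, and 141, 151, 176 and 139.6 in SKN-1t[DNDD]. All 12 transgenic samples were below all wild type samples, and the SKN-1t[NNNN] samples were below those of both other strains without overlap. *hgo-1* fell in each strain past the looser rule, by a log2 fold change of -0.89 (SE 0.10, edgeR adjusted p = 0.000248) in SKN-1t[NNNN] animals, -0.61 (SE 0.08, edgeR adjusted p = 0.000841) in SKN-1t[NDNN] animals and -0.67 (SE 0.10, edgeR adjusted p = 0.0018) in SKN-1t[DNDD].

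*fah-1*, the last enzyme of the tyrosine route, had 349, 388, 357 and 369 CPM in wild type. It had 303, 277, 247 and 201 CPM in SKN-1t[NNNN] animals, 308, 298, 217 and 234.5 in SKN-1t[NDNN] animals, and 284, 257, 208 and 203 in SKN-1t[DNDD]. Again all 12 transgenic samples were below all wild type samples, while the 3 strains overlapped each other. Its log2 fold change was -0.40 (SE 0.11, edgeR adjusted p = 0.0245) in SKN-1t[NNNN] and -0.38 (SE 0.13, edgeR adjusted p = 0.0507) in SKN-1t[NDNN]. In SKN-1t[DNDD] *fah-1* fell past the looser rule, by -0.61 (SE 0.12, edgeR adjusted p = 0.00777).

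*prdh-1*, the proline dehydrogenase, had 33.4, 29.6, 33.2 and 30.2 CPM in wild type. It had 69.8, 66.1, 67.3 and 51.1 CPM in SKN-1t[NNNN] animals, 69.1, 68.4, 48.5 and 56.2 in SKN-1t[NDNN] animals, and 58.7, 51.8, 36.8 and 34.9 in SKN-1t[DNDD]. No strain overlapped wild type, although replicates 3 and 4 of SKN-1t[DNDD] lay just above it. *prdh-1* rose by a log2 fold change of 1.12 (SE 0.10, edgeR adjusted p = 8.27e-05) in SKN-1t[NNNN] and 1.03 (SE 0.13, edgeR adjusted p = 0.000583) in SKN-1t[NDNN]. The second value sits at the 2-fold line and dropped below it without SKN-1t[NDNN] replicate 1 (0.90), without SKN-1t[NDNN] replicate 2 (0.96) or without wild type replicate 2 (0.94). In SKN-1t[DNDD] the log2 fold change was 0.54 (SE 0.17, edgeR adjusted p = 0.0474), under 1.5-fold.

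**Figure D2:**
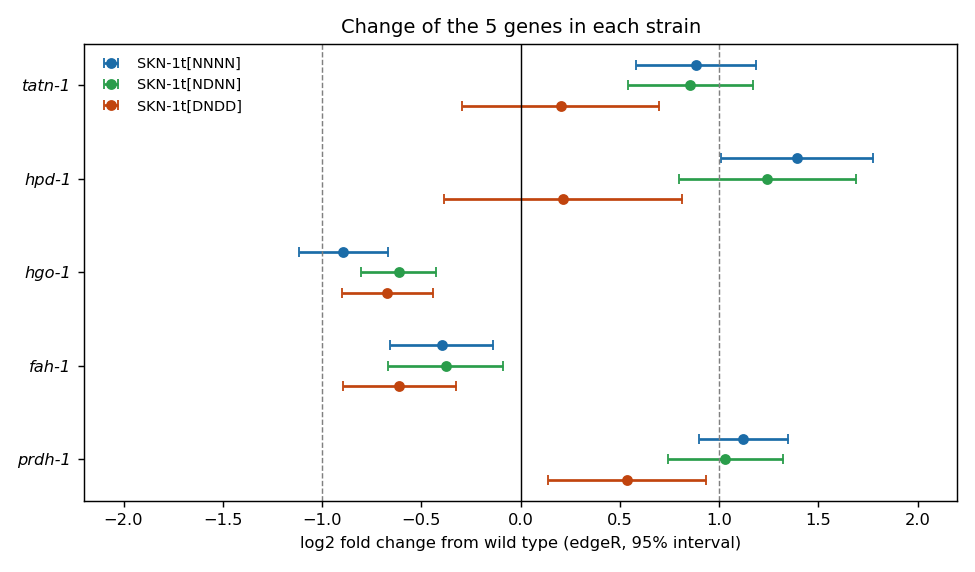
Fitted log2 fold change from wild type (horizontal axis) of the 5 genes in pathway order, with 95% intervals, for the 3 strains; dashed lines mark 2-fold. *hpd-1* stood at 1.39, 1.24 and 0.21 in the 3 strains, while *hgo-1* stood at -0.89, -0.61 and -0.67.

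In SKN-1t[NNNN] against wild type, 2 of the 5 genes were called higher (*hpd-1* and *prdh-1*), where 7.03% of the 14192 genes tested were called higher, and 0 were called lower, where 6.12% were. DESeq2 also called 2, and all 5 had an unadjusted p below 0.05, as did 46.7% of all genes. By the looser rule 3 were higher, against 14.3% of all genes, and 1 was lower, against 12.3%. In SKN-1t[NDNN], 2 were called higher, where 6.85% of 14310 genes were, and 0 lower, where 3.34% were. DESeq2 called 1 of them, all 5 had an unadjusted p below 0.05, against 43% of all genes, and the looser rule took 3 higher, against 14.4%, and 1 lower, against 9.52%.

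In SKN-1t[DNDD], 0 of the 5 were called in either direction, where 3.44% of 14400 genes were called higher and 3.35% lower. DESeq2 called 0 as well, and 3 had an unadjusted p below 0.05, against 45.7% of all genes. By the looser rule 0 were higher, against 11.8% of all genes, and 2 were lower (*hgo-1* and *fah-1*), against 10.8%. The median log2 fold change of the 5 genes was 0.88, 0.85 and 0.20 in the 3 strains, and that of all genes tested was 0.14, 0.08 and 0.04. These 3 comparisons share the wild type samples. When all 16 samples were scaled and fitted together, the median of all genes moved by -0.12 in SKN-1t[NNNN] against wild type, and *hgo-1* then passed 2-fold there at -1.01, as it did without SKN-1t[NNNN] replicate 2, also at -1.01. The TMM factors behind the CPM were 0.831 to 0.927 in wild type and 0.988 to 1.09 in the transgenic samples. Another scaling method, RLE, moved the median of all genes by -0.07, -0.05 and 0.02 in the 3 strains against wild type. Calls that changed with the scaling are given in the last section, and why the factors differ was not tested.

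The strains were then compared with each other in 1 fit of all 16 samples. Each strain carries its own insertion, so every such comparison spans a change of insertion as well as of protein. SKN-1t[DNDD] differs from SKN-1t[NNNN] at 3 asparagines. Reads of *skn-1* were also lower in the former, at 205 to 256 CPM against 269 to 335 in the latter. The part of protein form, *skn-1* level or insertion in the differences below was not tested. *hpd-1* showed the largest difference of the 5 in this first comparison. Its SKN-1t[DNDD] samples, at most 976 CPM, all lay below its SKN-1t[NNNN] samples, at least 1062 CPM. *hpd-1* was lower by a log2 fold change of -1.08 (SE 0.26, 95% interval -1.64 to -0.51, edgeR adjusted p = 0.0166), which passed the looser rule, as 3.00% of all genes did in the lower direction, but not the adjusted p of the main one. With the replicate block it was -1.12 (edgeR adjusted p = 0.00123) and was called, as were 1.37% of genes in that direction. By the main rule 0 of the 5 were called, where 2.61% of 14850 genes were called in either direction. Without SKN-1t[DNDD] replicate 1 the difference was -1.24 and was called. DESeq2 called 1, and 4 had an unadjusted p below 0.05, against 30.4% of all genes.

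*hgo-1* was higher in SKN-1t[DNDD] animals than with SKN-1t[NNNN], by a log2 fold change of 0.33 (SE 0.10, edgeR adjusted p = 0.0484), under 1.5-fold. *tatn-1* differed by -0.58 (SE 0.21, edgeR adjusted p = 0.0809) and *prdh-1* by -0.48 (SE 0.17, edgeR adjusted p = 0.0668), both of which missed 0.05. With the replicate block their adjusted p became 0.0129 and 0.0108. *fah-1* differed by -0.11 (95% interval -0.43 to 0.21).

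SKN-1t[NDNN] animals differ from SKN-1t[NNNN] animals at 1 asparagine and in the insertion. Set against SKN-1t[NNNN], they showed no difference in any of the 5 that passed the test. By the main rule 0 of the 5 were called, where 0.364% of genes were, DESeq2 called 0, and 1 of them, *hgo-1*, had an unadjusted p below 0.05, against 10.1% of all genes. *hgo-1* was higher in SKN-1t[NDNN] by a log2 fold change of 0.30 (95% interval 0.08 to 0.52, edgeR adjusted p = 0.312) and its groups did not overlap. For *hpd-1* the difference was -0.13 (95% interval -0.69 to 0.43), for *tatn-1* -0.01 (95% interval -0.46 to 0.44) and for *prdh-1* -0.07 (95% interval -0.42 to 0.28). *fah-1* differed by 0.04 (95% interval -0.27 to 0.36).

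In SKN-1t[DNDD] animals set against SKN-1t[NDNN], 0 of the 5 were called, where 0.256% of genes were. DESeq2 called 0, and 3 had an unadjusted p below 0.05, against 18.4% of all genes. *hpd-1* was again the most different, at -0.95 (SE 0.26, edgeR adjusted p = 0.0883), with the highest SKN-1t[DNDD] sample at 976 CPM and the lowest SKN-1t[NDNN] sample at 989. With the replicate block the adjusted p of *hpd-1* was 0.00603. *tatn-1* differed by -0.57 and *prdh-1* by -0.41, with edgeR adjusted p of 0.195 and 0.227 that became 0.0212 and 0.0304 with the block. *hgo-1* differed by 0.03 (95% interval -0.20 to 0.25) and *fah-1* by -0.15 (95% interval -0.47 to 0.16).

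The balance between enzymes of 1 route was read within each sample as a ratio of counts per length, which no scaling between samples can move. The ratio of *hpd-1* to *hgo-1* was 2.42 to 3.19 in wild type, 11.5 to 16.9 in SKN-1t[NNNN] animals, 7.92 to 13.9 in SKN-1t[NDNN] animals and 3.40 to 7.51 in SKN-1t[DNDD]. Every transgenic sample lay above wild type, including the SKN-1t[DNDD] samples whose *hpd-1* level did not. The ratio of *hpd-1* to *fah-1* was 1.60 to 2.24 in wild type, 5.59 to 7.79 in SKN-1t[NNNN] animals, 4.67 to 7.04 in SKN-1t[NDNN] animals and 2.36 to 4.20 in SKN-1t[DNDD], and also separated each strain from wild type. The ratio of *fah-1* to *hgo-1* was 1.42 to 1.55 in wild type, 1.96 to 2.22 in SKN-1t[NNNN] animals, 1.44 to 1.98 in SKN-1t[NDNN] animals and 1.17 to 2.0 in SKN-1t[DNDD], so only SKN-1t[NNNN] was separate.

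**Figure D3:**
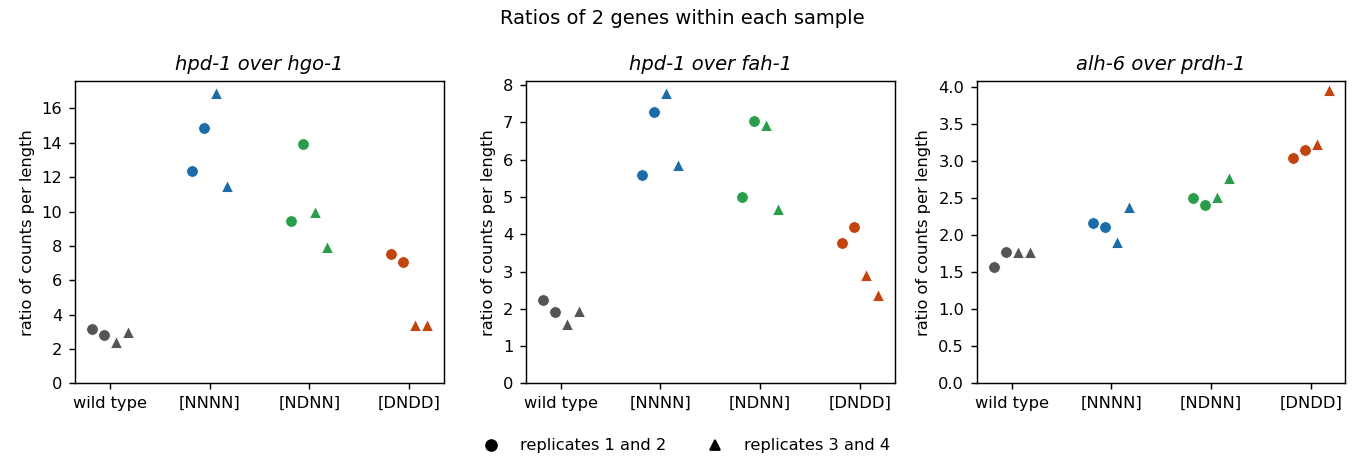
Ratio of counts per length of 2 genes within each sample (vertical axes, from 0) by genotype, with circles for replicates 1 and 2 and triangles for replicates 3 and 4. The ratio of *hpd-1* to *hgo-1* was at most 3.19 in wild type and at least 11.5 in SKN-1t[NNNN] animals, and that of *alh-6* to *prdh-1* stepped up over the 4 genotypes in the order drawn without overlap.

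For proline, ALH-6 takes over the product of PRDH-1. The ratio of *alh-6* to *prdh-1* was 1.58 to 1.77 in wild type, 1.91 to 2.38 in SKN-1t[NNNN] animals, 2.41 to 2.78 in SKN-1t[NDNN] animals and 3.04 to 3.96 in SKN-1t[DNDD]. No 2 of the 4 groups overlapped. *alh-6* itself was about as high in each strain, with means of 129.8 ± 12.5, 148 ± 21.4 and 144 ± 25.5 CPM against 52.2 ± 2.92 in wild type (SD, n = 4).

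In the SKN-1t[DNDD] group, replicates 1 and 2 averaged 1.98 times replicates 3 and 4 for *hpd-1*, 1.79 times for *tatn-1* and 1.54 times for *prdh-1*, where wild type gave 1.18, 0.996 and 0.994. The same ratios were 1.199, 1.26 and 1.15 with SKN-1t[NNNN] and 1.40, 1.28 and 1.31 with SKN-1t[NDNN]. The labels name no batch, and a split of the samples by replicate number was chosen after seeing the data. Fitted on replicates 1 and 2 alone, the log2 fold change of SKN-1t[DNDD] from wild type was 0.56 for *tatn-1* and 0.50 for *hpd-1*. On replicates 3 and 4 alone it was -0.31 and -0.27. The direction of these 2 genes in SKN-1t[DNDD] thus turned with the replicates used, while *hgo-1* (-0.78 and -0.59), *fah-1* (-0.44 and -0.84) and *prdh-1* (0.82 and 0.16) kept theirs. In SKN-1t[NNNN] *hpd-1* was at 1.38 and 1.31 and *hgo-1* at -0.81 and -1.09 in the same subsets.

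Summed over 6 germline markers, replicate 4 was the highest of each transgenic group, at 707, 367 and 953 CPM in the 3 strains, against 90.6 to 279 in replicates 1 to 3 of those strains. Summed over 10 sperm markers, SKN-1t[DNDD] had 90.1, 59.1, 218 and 281 CPM, the last pair being the samples with low *hpd-1* and *tatn-1*. The sperm sum was higher in replicates 3 and 4 of the other groups too. It was 32.6, 29.2, 101 and 78.0 CPM in wild type and 34.3, 35.2, 65.9 and 200 in SKN-1t[NNNN] animals. In SKN-1t[NDNN] animals it was 41.6, 41.4, 81.2 and 99.1 CPM. In wild type the germline sum was 70.0 and 64.5 CPM in replicates 1 and 2 and 186 and 180.2 in replicates 3 and 4, while *hpd-1* and *tatn-1* gave the ratios of 1.18 and 0.996 named above. The 10 reporter genes of SKN-1 activity also split in SKN-1t[DNDD], with sums of 4413, 4154, 2895 and 2620 CPM. Their sums were 946 to 1137 CPM in wild type, 4593 to 5781 in SKN-1t[NNNN] animals and 4975 to 5715 in SKN-1t[NDNN] animals. The part of developmental stage or of SKN-1 activity in these differences was not tested.

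Markers of the tissues that could carry these enzymes moved as well. Summed over 7 intestine markers, wild type had 5438 to 7625 CPM, SKN-1t[NNNN] 3445 to 4439, SKN-1t[NDNN] 3709 to 3977 and SKN-1t[DNDD] 2894 to 3528. Of these 7 markers 2, 3 and 4 were called lower in the 3 strains, where 6.12%, 3.34% and 3.35% of all genes were. The median log2 fold changes of the 7 were -0.70, -0.71 and -1.14. *hgo-1* and *fah-1* were below the wild type range in the same 12 samples as the intestine sum, and *prdh-1* was above it in all 12. *tatn-1* was below its wild type range in SKN-1t[DNDD] replicates 3 and 4, and *hpd-1* in replicate 4 of that strain. Summed over 7 hypodermis markers the groups overlapped, at 2100.2 to 5216 CPM in wild type, 2051 to 3615 in SKN-1t[NNNN] animals, 3543 to 5693 in SKN-1t[NDNN] animals, and 4027 to 4385 in SKN-1t[DNDD]. Of the 7 hypodermis markers 3, 3 and 1 were called higher, where 7.03%, 6.85% and 3.44% of all genes were. No marker of either tissue was at 0 in all samples of a group, and the part of tissue composition in these results was not tested. Yolk protein genes differed far more, with sums of 4267 to 23808 CPM in wild type and 94.95 to 221 in SKN-1t[NNNN]. They were 109 to 867 CPM in SKN-1t[NDNN] animals, and in SKN-1t[DNDD] they were 143 and 303 in replicates 1 and 2 against 1646 and 3710 in replicates 3 and 4. Summed over 5 adult cuticle markers, wild type had 1886 to 2868 CPM, SKN-1t[NNNN] 503 to 1897 and SKN-1t[NDNN] 1542 to 2890.0. In SKN-1t[DNDD] the sum was 1989.8 to 2521. The sum hides opposite moves. *col-19* averaged 351 CPM in wild type and 1.04, 15.1 and 110 in the 3 strains. *col-7* averaged 48.1 CPM in wild type and 0.056, 1.56 and 23.7 in the strains. Both were called lower in SKN-1t[NNNN] animals, at log2 fold changes of -8.26 and -9.53. Of the 5 markers, 0 were called lower in the other strains, and 2 had positive log2 fold changes in each strain.

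Of 17 neighbouring genes of both pathways, 15 were in the table and 13 were tested, since *cat-2* and *tph-1*, the tyrosine and tryptophan hydroxylases of neurons, had too few counts. In SKN-1t[NNNN] 6 of the 13 were called higher and 2 lower, where 7.03% and 6.12% of all genes were. The counts were 6 and 0 for SKN-1t[NDNN] (all genes, 6.85% and 3.34%), and 2 and 0 for SKN-1t[DNDD] (all genes, 3.44% and 3.35%). Their median log2 fold change was 0.74, 0.62 and -0.02, beside 0.14, 0.08 and 0.04 over all genes. By the looser rule 7, 7 and 3 of the 13 were higher in the 3 strains, against 14.3%, 14.4% and 11.8% of all genes. In the lower direction 2, 2 and 3 passed it, against 12.3%, 9.52% and 10.8%.

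Genes that make or recycle the tetrahydrobiopterin cofactor, which the tyrosine and tryptophan hydroxylases need, were among those that rose. *cat-4*, GTP cyclohydrolase, the first enzyme of its synthesis, averaged 65.0 ± 8.03 CPM in wild type, 169 ± 20.2 in SKN-1t[NNNN] animals, 123 ± 16.8 in SKN-1t[NDNN] animals and 79.2 ± 7.85 in SKN-1t[DNDD] animals (SD, n = 4). Its log2 fold change from wild type was 1.5 (SE 0.13) in SKN-1t[NNNN] and 1.01 (SE 0.13) in SKN-1t[NDNN], both called, and 0.29 (SE 0.12, edgeR adjusted p = 0.0866) in SKN-1t[DNDD]. Its SKN-1t[DNDD] level was called lower than that with SKN-1t[NNNN], at -1.10 (SE 0.12, edgeR adjusted p = 4.46e-05).

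*qdpr-1*, the dihydropteridine reductase that recycles the cofactor, was called at 1.54 and 1.34 in the first strains and stood at 0.86 (edgeR adjusted p = 0.0531) in the last. *ptps-1*, the pyruvoyl-tetrahydropterin synthase, was called at 1.19 and 1.01 and stood at 0.31 (edgeR adjusted p = 0.20) in SKN-1t[DNDD], and its call in SKN-1t[NDNN] was lost with the replicate block, where its fold came under the 2-fold line and its edgeR adjusted p was 0.00255. *pcbd-1*, the pterin carbinolamine dehydratase, rose past the looser rule at 0.74 and 0.62 and stood at -0.02 in SKN-1t[DNDD]. *gst-42*, the maleylacetoacetate isomerase between HGO-1 and FAH-1, had log2 fold changes of -0.26, -0.14 and -0.45, of which only the last had an edgeR adjusted p below 0.05 (0.0457).

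Around proline, genes of breakdown and of synthesis moved unequally. *alh-6*, the dehydrogenase after PRDH-1, was called higher in all 3 strains, at log2 fold changes of 1.43 (SE 0.08), 1.59 (SE 0.12) and 1.47 (SE 0.13). Its SKN-1t[DNDD] level differed from that with SKN-1t[NNNN] by 0.15 (SE 0.13, edgeR adjusted p = 0.444). *alh-13*, the synthase that starts proline production from glutamate, averaged 542 ± 122 CPM in wild type, 173 ± 46.1 in SKN-1t[NNNN] animals, 299 ± 104.05 in SKN-1t[NDNN] animals, and 324 ± 67.4 in SKN-1t[DNDD] animals (SD, n = 4). It was called lower in SKN-1t[NNNN] at -1.52 (SE 0.24, edgeR adjusted p = 0.00147) and stood at -0.77 in SKN-1t[NDNN] (edgeR adjusted p = 0.0524). With SKN-1t[DNDD] it fell past the looser rule, at -0.73 (edgeR adjusted p = 0.0291).

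The pyrroline-5-carboxylate reductases, which complete proline synthesis, went apart. *pycr-4*, listed in the table as F55G1.9, averaged 28.2 ± 2.32 CPM in wild type, 454 ± 47.1 in SKN-1t[NNNN] animals, 308 ± 52.9 in SKN-1t[NDNN] animals and 154 ± 51.6 in SKN-1t[DNDD] animals (SD, n = 4). It was called higher in every strain, at log2 fold changes of 4.12 (SE 0.10), 3.54 (SE 0.15) and 2.46 (SE 0.23), and its SKN-1t[DNDD] level was lower than with SKN-1t[NNNN], at -1.56 (SE 0.20, edgeR adjusted p = 0.000129). *pycr-1*, listed as M153.1, averaged 254 ± 37.8 CPM in wild type and 103 ± 9.43 in SKN-1t[NNNN] animals (SD, n = 4) and was called lower there at -1.18 (SE 0.13, edgeR adjusted p = 0.000215). It fell past the looser rule in the others, at -0.76 with SKN-1t[NDNN] (edgeR adjusted p = 0.0185) and -0.74 with SKN-1t[DNDD] (edgeR adjusted p = 0.0247). *argn-1*, an arginase listed as T21F4.1, was called higher at 1.43 and 1.31 in the first strains and stood at 0.84 in the last, where its edgeR adjusted p was 0.0258, while *oatr-1*, the ornithine aminotransferase, stood at 0.12, 0.14 and -0.38.

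**Figure D4:**
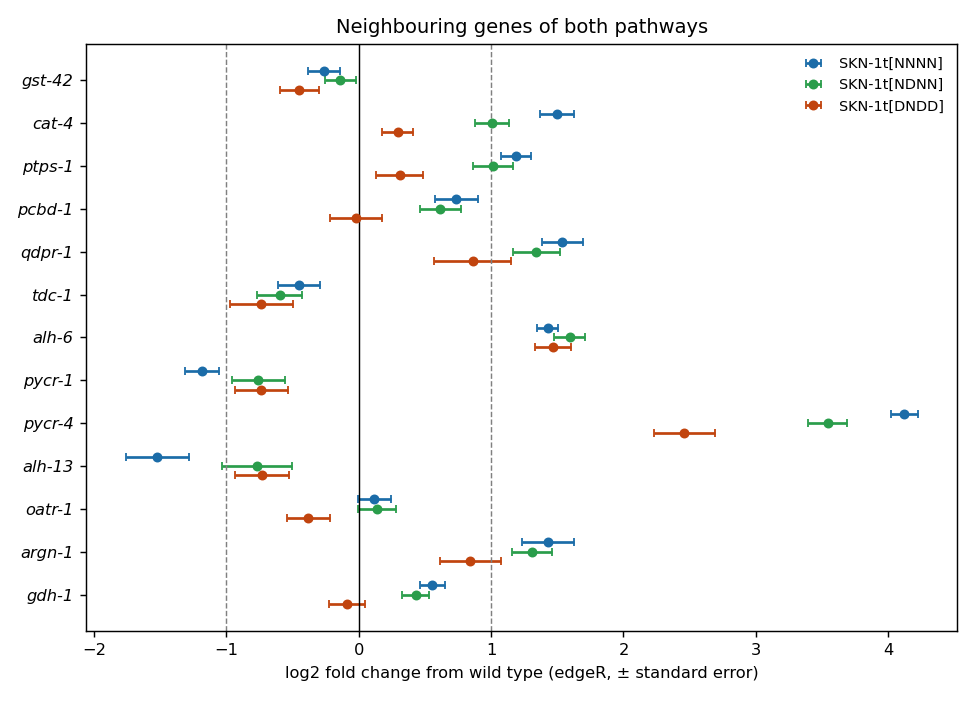
Fitted log2 fold change from wild type (horizontal axis) with its standard error for 13 neighbouring genes of both pathways in the 3 strains; dashed lines mark 2-fold. *pycr-4* stood at 4.12, 3.54 and 2.46 and *alh-6* at 1.43, 1.59 and 1.47, while *cat-4* stood at 1.5, 1.01 and 0.29.

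Enzymes of the metabolism of other amino acids, most of them breakdown enzymes, were taken as the nearest comparison. Of 30 such genes, all tested, 4, 2 and 1 were called higher in the 3 strains, where 7.03%, 6.85% and 3.44% of all genes were. In the lower direction 2, 2 and 0 of the 30 were called, where 6.12%, 3.34% and 3.35% of all genes were. By the looser rule 4, 5 and 1 were higher and 6, 6 and 8 lower, where the shares of all genes named above were 14.3%, 14.4% and 11.8% higher and 12.3%, 9.52% and 10.8% lower. Their median log2 fold change was -0.04, -0.04 and -0.42, beside 0.88, 0.85 and 0.20 for the 5 genes. The largest change in SKN-1t[NNNN] was that of *cbl-1*, a gene of the cystathionine lyase family, at 3.52, followed by *kmo-1*, the kynurenine monooxygenase of tryptophan breakdown, at 1.42. *daao-1*, a D-amino acid oxidase, fell by 1.41 on the log2 scale.

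Across the 16 samples, with the differences between genotypes included, *tatn-1* and *prdh-1* tracked *hpd-1*, and *hgo-1* and *fah-1* did not. Pearson's r of log2 CPM was 0.96 between *tatn-1* and *hpd-1* and 0.91 between *tatn-1* and *prdh-1*, while it was -0.58 between *hpd-1* and *hgo-1* and 0.75 between *hgo-1* and *fah-1*. These are descriptions over samples that share genotypes and replicate numbers. After each genotype's mean was removed, r was 0.83 between *tatn-1* and *fah-1* and 0.88 between *fah-1* and *prdh-1*, where it had been 0.0046 and -0.27. Between *hpd-1* and *fah-1* it was 0.74, where it had been -0.07. Within genotypes *fah-1* thus varied with *tatn-1*, *hpd-1* and *prdh-1*, although its mean was below wild type in each strain and theirs were above. Among the 3 strains, each of these genes had its lowest mean in SKN-1t[DNDD]. *hgo-1* varied least with the rest, with r from 0.15 (*prdh-1*) to 0.44 (*fah-1*) after the means were removed.

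Among 8030 other genes of at least 10 CPM, those with the highest Pearson's r of log2 CPM over the 16 samples to *hpd-1* were *gss-1* and *alh-10*, each at 0.97. For *prdh-1* they were C33D9.3 and *col-149*, each at 0.99, and for *hgo-1* *cgr-1* at 0.99 and F54D5.3 at 0.98. For *tatn-1* they were *pdfr-1* and ZK470.2, each at 0.95, and for *fah-1* *ckc-1* at 0.97 and *syx-3* at 0.96.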

How the data were processed

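Polyadenylated RNA of whole L4 animals was sequenced from TruSeq Stranded libraries. The authors aligned paired reads to WBcel235 with STAR 2.7.7a, checked them with FastQC 0.11.9 and deposited gene counts (whole reads per protein-coding gene, not normalized). From these counts, edgeR 4.0.16 (R 4.3.3) filtered genes with filterByExpr (minimum count 10, minimum total 15), scaled by TMM and fitted the quasi-likelihood test, on 8 samples for each strain against wild type and on all 16 between strains, with Benjamini-Hochberg adjustment over all genes. A call needed an absolute log2 fold change over 1 and an adjusted p below 0.01. DESeq2 1.42.0 was an alternative, and the scripts were tested on simulated data. Log2 CPM used a prior count of 2. p-values rest on the spread between independent populations. The members and gene lists were chosen with earlier results of these data known. All 5 members and all measured neighbouring genes could be named, of other lists the 3 largest called changes, and per member its 2 most similar genes. Same-numbered samples deviated from their group means together (r at least 0.18 in 5 comparisons, and at least 0.06 in SKN-1t[NNNN] against wild type), so a replicate block was an alternative. Of 19122 gene IDs, 19066 were in the annotation used for positions. Other settings tried were RLE scaling, other filters, a test against a 2-fold change, and leaving out samples. Promoter and protein sequences were not used here, and 1 further gene of these pathways is not reported here.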

Additional observations from a re-analysis of the deposited data

Results flagged for a closer look

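2 of the 5 genes differed in SKN-1t[DNDD] animals from SKN-1t[NNNN] animals by a direct test at an adjusted p below 0.05 (edgeR quasi-likelihood), as did 13.6% of all genes. *hpd-1* was lower in SKN-1t[DNDD] by a log2 difference of -1.08, and *hgo-1* was higher by 0.33. Dixon's outlier test flagged 0 of the 20 combinations of gene and genotype. With 4 samples a group it has little power, and it cannot flag 2 samples that stand apart together, so it does not show that the samples of a group were alike.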

How the results depend on the processing

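Of the 30 log2 fold changes of the 5 genes over 6 comparisons, 29 kept their direction and their side of the threshold with RLE scaling, without a low-count filter and with the replicate block, and 28 did with DESeq2. The block moved *hpd-1* in SKN-1t[DNDD] against SKN-1t[NNNN] to -1.12 and changed no other call. In SKN-1t[NNNN] against wild type the count of 2 calls became 0 when tested against a 2-fold change, 4 by the looser rule, 1 on replicates 3 and 4 (*hgo-1*, with *hpd-1* and *prdh-1* lost), and 2 to 3 when 1 sample was left out. A single fit of all samples added *hgo-1* to the calls in that comparison. In SKN-1t[NDNN] the 2 calls became 1 with RLE scaling, DESeq2, no filter or a single fit of all samples, 0 against a 2-fold change, 4 by the looser rule, 0 on replicates 3 and 4, and 1 to 2 with 1 sample left out; where 1 was left it was *hpd-1*. In SKN-1t[DNDD] 0 became 2 by the looser rule. On replicates 1 and 2 alone, 2 of the 30 fold changes gained a call and 0 lost one. On replicates 3 and 4 alone, 1 gained a call and 4 lost one. In SKN-1t[DNDD] set against SKN-1t[NNNN], 0 became 1 with DESeq2, the replicate block or the looser rule, and 0 to 1 with 1 sample left out (1 without SKN-1t[DNDD] replicate 1). Directions turned only where the difference was small or the fit used 2 replicates a group. On replicates 3 and 4, SKN-1t[DNDD] against wild type gave -0.31 for *tatn-1* and -0.27 for *hpd-1*, and SKN-1t[NDNN] against SKN-1t[NNNN] gave -0.0025 for *fah-1*. On replicates 1 and 2, *prdh-1* in the latter comparison gave 0.0036, and *hgo-1* in SKN-1t[DNDD] against SKN-1t[NDNN] gave -0.15. With 1 sample left out, *hgo-1* in SKN-1t[DNDD] against SKN-1t[NDNN] ran from -0.053 to 0.073. In SKN-1t[NDNN] against SKN-1t[NNNN], *tatn-1* ran from -0.15 to 0.069, *fah-1* from -0.061 to 0.13 and *prdh-1* from -0.16 to 0.023. The causes were not tested. The least abundant of the 5 genes, *prdh-1*, had at least 682 counts in each sample.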
